A study of Mus musculus with 8 samples.

Results

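The genes described here are the nuclear genes of mitochondrial complex I, taken as those whose mouse symbol starts with Nduf, pseudogenes left out, matched to the Ensembl identifiers of the count table. They were 49 of 37224 genes: 15 in arm a, 11 in arm b, 2 in arm c, 9 in arm s and 3 in arm v, all named for subunits, 8 assembly factors (af), and Ndufab1, which was put in no arm. Complex I, NADH:ubiquinone oxidoreductase, passes electrons from NADH over a flavin and a row of iron-sulfur clusters to ubiquinone and pumps protons across the inner mitochondrial membrane. The enzyme is L-shaped, with a matrix arm that binds NADH and ubiquinone and a membrane arm that pumps, and assembly factors help to build it without staying in it. Its core subunits are split between the nuclear and the mitochondrial genome, and the egg supplies the mitochondria of the embryo. The symbol arms are names, not places in the enzyme. In structural terms 16 members belong to the matrix arm and 20 to the membrane arm, and 7 are core subunits, the conserved ones that carry the catalysis.

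RNA was sequenced from 8 single mouse oocytes arrested at metaphase II of meiosis (MII oocytes), collected from superovulated females, 4 oocytes of Setd1bGdf9cKO mice (labelled Knock Out) and 4 of control mice. The knockout is a conditional one of Setd1b, an enzyme that methylates histone H3 at lysine 4, and is named for Gdf9, whose promoter is widely used to drive Cre recombinase in oocytes. The labels give no strain, age or further alleles, nor the genotype of the controls, and do not say whether oocytes of a group came from different females. The p-values therefore cover only the variation among these 8 libraries, part of which may be technical.

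Levels are in CPM, counts per 1000000 after TMM adjustment of the library size, so each is a share of the library and not a number of molecules per oocyte. Fold changes are log2 of knockout over control with 4 libraries per group, given ± SE and tested with edgeR's quasi-likelihood test, and a gene is said to be called, to rise or to fall at an adjusted p under 0.05. The targeted gene, Setd1b (ENSMUSG00000038384, chromosome 5, 123142193 to 123167435, mm10), stood at 4.42, 5.05, 2.96 and 3.54 CPM in the knockout and 10.7, 12.8, 9.22 and 10.9 CPM in the control libraries, replicates 1 to 4 in that order. The groups did not overlap, and the log2 fold change was -1.44 ± 0.41 (adjusted p = 0.0221). That call was lost without knockout replicate 3 (adjusted p = 0.0519) and without control replicate 2 (adjusted p = 0.054), and with library totals only (adjusted p = 0.0887). The labels do not say which exons were deleted. Library totals ran from 9488899 to 13519404 counts. The groups differed in composition, with TMM factors of 1.07 to 1.22 in the knockout and 0.80 to 0.947 in the control libraries, and with 11190 to 12153 genes of at least 10 counts in the knockout and 9913 to 10714 in the control libraries. The part of this difference in the results below was not tested. All 10 oocyte markers examined were detected, with sums of 13738 to 17922 CPM in the knockout and 14252 to 18932 CPM in the control libraries. Of 17 markers of cumulus and granulosa cells, 8 were at 0 in every library, among them Foxl2, Amh, Inha and Lhcgr, and the 17 together came to 47.4 to 116 CPM in the knockout and 95.3 to 141 CPM in the control libraries. Most of that sum was Cyp19a1, which fell, and Kitl, and of the oocyte markers Zp1, Zp2, Zp3 and Nlrp5 rose and Ooep fell. The part of these markers in the results was not tested.

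More Nduf genes rose than fell in the knockout oocytes. Of the 49 members, 39 passed the abundance filter and were tested. Of these, 19 rose (a background of 13.6% of 11066 tested genes), 1 fell (background 12.2%) and 19 were not called. The 20 calls compare with a background of 25.8% in either direction, and 36 of the 39 log2 fold changes were above 0 (background 53.7%). These shares depend on scaling: with library totals only 26 members rose (background 21.5%) and 1 fell (background 4.61%). All 19 rises were at least 2-fold, as were 1281 of the 1503 rises among all 11066 tested genes. The log2 fold changes of the 39 ran from -0.97 for Ndufa10 to 3.32 for Ndufb3. Their median was 1.24, beside a median of 0.10 for all tested genes. In 24 of the 39 every knockout library lay above every control library (background 17.7%), and in 1, Ndufa10, every knockout library lay below (background 13.6%). The filter asks for about 10 counts in 4 libraries, so a member silent in control oocytes could pass only by being high in the knockout. With the control libraries alone 25 of the 39 would have passed, and of those 15 rose and 1 fell. Those 25 had a median log2 fold change of 1.17. In 16 of them every knockout library lay above every control library, and in 1 every one lay below. Of the other 14, 4 rose: Ndufa3, Ndufa9, Ndufaf8 and Ndufv1. These 14 had a median of 1.70 and 8 of the 24 cases without overlap, values that the filter itself favours. These counts and medians describe the members and carry no test of their own.

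**Figure D1:**
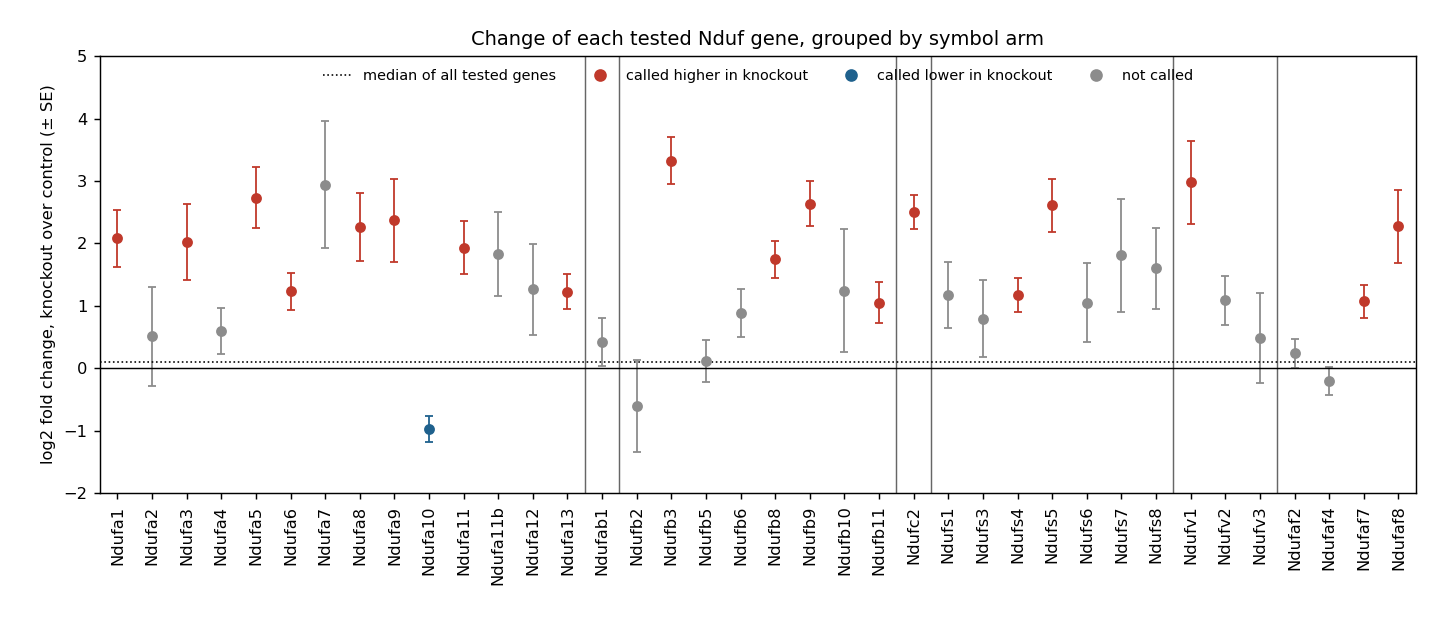
Log2 fold change of knockout over control for 38 of the 39 tested Nduf genes, grouped by symbol arm (a, Ndufab1, b, c, s, v, af, split by vertical lines), with bars for the SE of the fit (4 libraries per group). Red points were called higher and the blue point, Ndufa10, was called lower, and the dotted line is the median of all 11066 tested genes, 0.10.

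Over all tested genes 13.6% rose and 12.2% fell, with a median log2 fold change of 0.10. By arm, 8 of 14 tested members of arm a rose and 1 fell, with a median log2 fold change of 1.88. In arm b 4 of 8 rose (median 1.14), in arm s 3 of 8 (median 1.39), in arm v 1 of 3 (median 1.09), and among assembly factors 2 of 4 (median 0.65). The single tested member of arm c rose. These counts and medians include members that passed the filter with the help of the knockout libraries. By control libraries alone, 8 of the 14 would have passed in arm a, 6 of 8 in arm b and 5 of 8 in arm s. The same holds for 1 of 3 in arm v, 3 of 4 assembly factors and the member of arm c. By structure, 6 of 16 tested matrix arm members rose (median 1.25) and 11 of 16 tested membrane arm members rose and 1 fell (median 1.84). Log2 fold changes were above 0 in all 16 of the matrix arm and in 14 of 16 of the membrane arm (background 53.7%). The matrix arm members were scarcer, with a median control level of 2.26 CPM against 9.13 CPM. By control libraries alone, 7 and 13 of them would have passed the filter. The part of the level in these counts was not tested. Of the 27 tested members of arms a, b, c, s and v that are not core subunits, 15 rose and 1 fell. These include Ndufa4 and Ndufa11b and leave out Ndufab1. The differences between arms were not tested. Arm a has a count of 5 at an adjusted p under 0.01. With 1 library left out, arm a had 6 to 9 rises, arm b 3 to 4 and arm s 3 to 4. In arm v 2 rose without control replicate 4. Of the assembly factors, 1 rose without knockout replicate 2 and 3 without control replicate 1.

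Promoter sequences of the members were set beside those of all genes. RefSeq's promoter table (GRCm38.p6, 250 bases before and 50 after a start site) held 42 windows for 40 of the 49 members. They had a median of 20.5 CpG dinucleotides per 300 bases, beside 7 over all 32851 windows. The motif of nuclear respiratory factor 1 (NRF1), a known activator of respiratory chain genes, searched by a 10-letter consensus with 1 free position, was in 10 of 42 member windows (23.8%) and in 4.6% of all windows (both strands, as for the other motifs). A YY1 motif, ATGGCGGC, was in 8 (19%, all windows 2.24%), the ETS motif bound by GABP, CCGGAAG, in 6 (14.3%, all windows 8.86%), a GC box, GGGGCGGG, in 11 (26.2%, all windows 16.5%), a TATA box, TATAAA, in 5 (11.9%, all windows 13.6%) and the motif of estrogen-related receptors, TNAAGGTCA, in 1 (2.38%, all windows 1.28%). Overlapping matches were allowed. The windows of Ndufa5 overlap each other, as do those of Ndufa7, so a match can count in both. By gene, 9 of 40 members held the NRF1 motif (5.19% of all genes) and 7 the YY1 motif (2.6% of all genes). The part of the CpG content in these shares was not tested. Of the 17 members called higher that have a window, 5 held the NRF1 motif, 3 the YY1 motif and 5 the GC box. The ETS motif was in 1 of them, the TATA box in 1 and the motif of estrogen-related receptors in 0. Among all 40 members with a window, these motifs were in 9, 7, 11, 6, 4 and 1, in the same order. Whether any motif goes with the rise was not tested. A match of letters is a description and not a bound site.

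Upstream stretches of 4 members are shown, from 3 that rose in arms c, s and v and from Ndufa10, the member that fell, so that their letters can be compared. Each runs 5′ to 3′ on the gene's strand within the 250 bases before the RefSeq start site, bases in annotated exons left out, and capitals mark motif matches.
Ndufc2, chr7:97399753-97400002, plus strand: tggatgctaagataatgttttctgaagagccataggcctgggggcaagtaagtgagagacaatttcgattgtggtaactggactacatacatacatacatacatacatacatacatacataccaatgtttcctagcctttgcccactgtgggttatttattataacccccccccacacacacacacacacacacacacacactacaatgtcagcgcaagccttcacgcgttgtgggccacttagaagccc
Ndufs5, chr4:123718203-123718436, minus strand: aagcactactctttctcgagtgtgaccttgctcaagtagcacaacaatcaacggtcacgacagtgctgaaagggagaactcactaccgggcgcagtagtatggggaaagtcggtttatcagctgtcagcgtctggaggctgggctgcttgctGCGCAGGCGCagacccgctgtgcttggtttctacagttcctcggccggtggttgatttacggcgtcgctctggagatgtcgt
Ndufv1, chr19:4012807-4013005, minus strand: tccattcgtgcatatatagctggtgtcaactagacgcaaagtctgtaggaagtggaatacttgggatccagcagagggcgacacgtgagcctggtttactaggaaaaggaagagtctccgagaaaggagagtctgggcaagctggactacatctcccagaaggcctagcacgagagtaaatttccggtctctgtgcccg
Ndufa10, chr1:92473861-92474008, minus strand: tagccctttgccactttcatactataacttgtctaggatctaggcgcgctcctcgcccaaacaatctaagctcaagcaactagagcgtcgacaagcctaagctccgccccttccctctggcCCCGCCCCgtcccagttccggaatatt
The capitals in Ndufs5 are an NRF1 match on the opposite strand and those in Ndufa10 a GC box on the opposite strand. The stretches of Ndufc2 and Ndufv1 held none of the 6 motifs, and Ndufc2 had the fewest CpG dinucleotides of the member windows, 8 in 300 bases.

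The core subunits of the matrix arm carry the redox centres. Ndufv1 (ENSMUSG00000037916, chromosome 19, 4007497 to 4012806, mm10) holds the flavin and the NADH site. It was at 23.2, 24.3, 5.21 and 6.05 CPM in the knockout and 3.19, 2.24, 1.24 and 0.80 CPM in the control libraries. The groups did not overlap, but knockout replicates 1 and 2 were well above replicates 3 and 4, and the log2 fold change was 2.98 ± 0.67 (adjusted p = 0.00756). Ndufv2, an iron-sulfur subunit beside it, stood at 11.2, 12.4, 13.6 and 9.21 CPM in the knockout and 4.73, 4.15, 5.77 and 7.2 CPM in the control libraries. Its groups did not overlap either, and it just missed the threshold with a log2 fold change of 1.09 ± 0.39 (adjusted p = 0.0578). It passed without control replicate 4 (adjusted p = 0.0461), in DESeq2 (adjusted p = 0.0302) and with library totals only (adjusted p = 0.0137). Ndufs1, the largest iron-sulfur subunit, had 17.4, 18, 15.9 and 28.1 CPM in the knockout and 17.5, 5.75, 9.88 and 2.1 CPM in the control libraries. Control replicate 1 lay among the knockout values, and the log2 fold change of 1.17 ± 0.53 (adjusted p = 0.126) passed, among the alternatives run, without that library only (1.74, adjusted p = 0.0322).

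Nearer the membrane, Ndufs7, which takes part in the ubiquinone site, was at 2.02, 8.59, 1.89 and 2.98 CPM in the knockout and 1.76, 0.878, 0.0824 and 1.7 CPM in the control libraries. Those groups did not overlap, but knockout replicate 2 stood far above the others, and the log2 fold change of 1.81 ± 0.91 (adjusted p = 0.167) was not called and came to 1.07 without that library. The iron-sulfur subunit Ndufs8 had 5.62, 6.55, 6.82 and 3.54 CPM in the knockout and 0.66, 2.47, 1.07 and 3.2 CPM in the control libraries. Its lowest knockout value lay just above its highest control value, and it was not called (log2 fold change 1.60 ± 0.65, adjusted p = 0.091), though it passed with library totals only (adjusted p = 0.0381). Ndufs3, another core subunit, had 5.4, 6.03, 2.69 and 2.7 CPM in the knockout and 1.43, 3.75, 1.89 and 2.6 CPM in the control libraries. Its groups overlapped, with a log2 fold change of 0.79 ± 0.62 (adjusted p = 0.378).

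**Figure D2:**
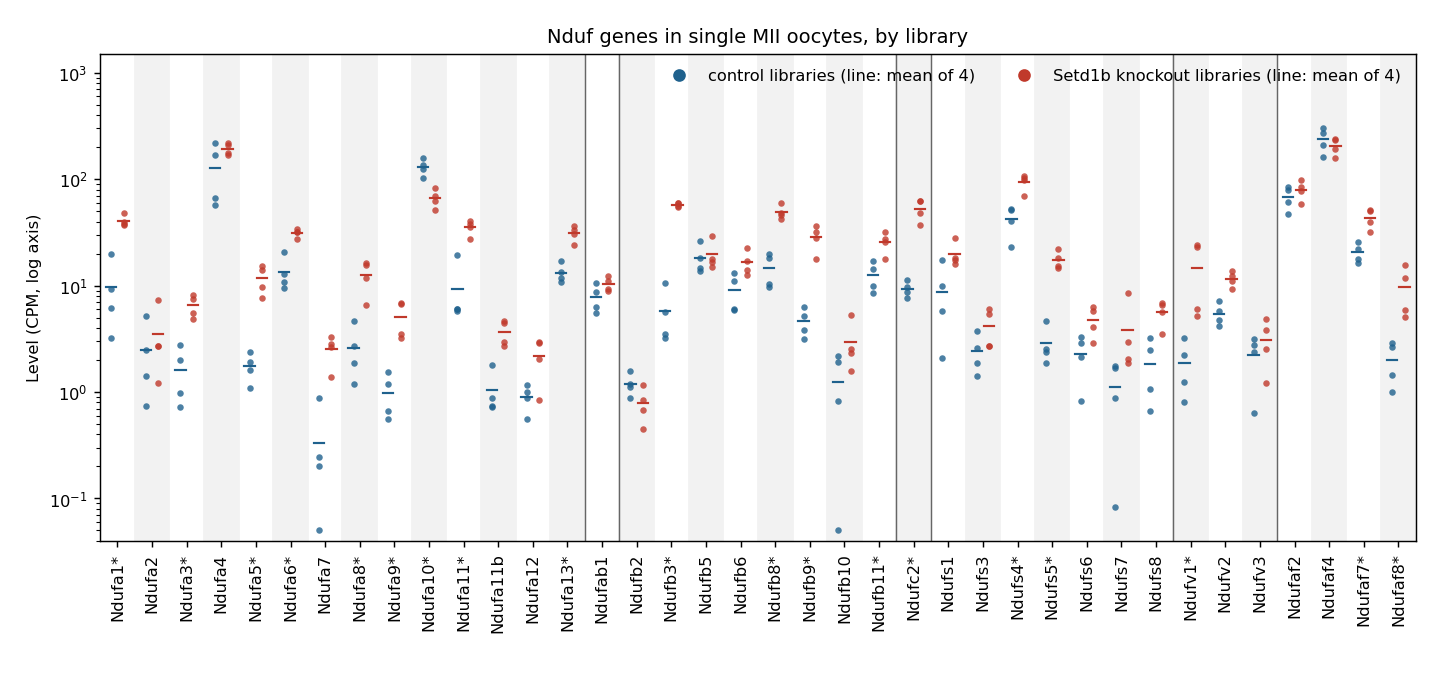
Level in CPM (log axis) of 38 of the 39 tested Nduf genes in each of 4 control (blue) and 4 knockout (red) libraries, with short lines for group means, an asterisk for genes called in either direction and values of 0 drawn at 0.05. Red points lie wholly above blue ones for 23 genes and wholly below for Ndufa10.

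Among the accessory subunits of arm s, Ndufs5, on the membrane arm's intermembrane side, and Ndufs4, at the NADH-binding end and a gene of Leigh syndrome, rose. Ndufs5 was at 14.7, 22.1, 18.2 and 15.3 CPM in the knockout and 2.53, 2.39, 1.89 and 4.7 CPM in the control libraries, without overlap, with a log2 fold change of 2.61 ± 0.42 (adjusted p = 0.00125). Part of its sequence, 15.7% of its stretches of 75 bases (the read length), also occurs in the transcript BC002163. Such shares were taken over all GENCODE M21 transcripts of a gene, which are not the counted Ensembl 69 models, so they describe the gene and not the share of its counts. Ndufs4, highest per length in this arm, had 69.1, 97.6, 108 and 102 CPM in the knockout and 51.9, 23.3, 40.4 and 52.3 CPM in the control libraries. Knockout replicate 1 was the lowest of its group and still above every control, and the log2 fold change was 1.17 ± 0.27 (adjusted p = 0.00889). Ndufs6, a zinc-binding accessory subunit, was not called, with a log2 fold change of 1.05.

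In arm a the rises were those of Ndufa1, Ndufa3, Ndufa5, Ndufa6, Ndufa8, Ndufa9, Ndufa11 and Ndufa13. Ndufa5 (ENSMUSG00000023089, chromosome 6, 24518666 to 24528013, mm10), bound to the ubiquinone module, was at 14.1, 15.2, 9.79 and 7.63 CPM in the knockout and 1.1, 1.6, 2.39 and 1.9 CPM in the control libraries. Its lowest knockout value was above its highest control value by a wide margin, with a log2 fold change of 2.73 ± 0.48 (adjusted p = 0.00214). Ndufa11, a membrane arm subunit, had 38.2, 40.2, 35.4 and 27.3 CPM in the knockout and 5.72, 5.99, 6.01 and 19.3 CPM in the control libraries. Control replicate 4 stood apart from the other controls and yet below the knockout values. The log2 fold change was 1.93 ± 0.42 (adjusted p = 0.00659), and 2.57 without control replicate 4. Ndufa1, a small membrane subunit encoded on the X chromosome, had 39.4, 48.7, 38 and 36.7 CPM in the knockout and 19.9, 6.23, 3.21 and 9.39 CPM in the control libraries, and here control replicate 1 was the high one. Its log2 fold change was 2.08 ± 0.46 (adjusted p = 0.00728), and 2.69 without control replicate 1. The remaining rises had log2 fold changes of 1.23 for Ndufa13, also known as GRIM-19, 1.23 for Ndufa6, 2.02 for Ndufa3, 2.26 for Ndufa8 and 2.37 for Ndufa9. For Ndufa13, 25.6% of its stretches of 75 bases also lie in Tssk6. That gene is on the opposite strand, overlaps 375 of the 1243 bases of Ndufa13 and had 0 counts in every library. Reads from the overlap may be missing from the count of Ndufa13. The calls of Ndufa3 and Ndufa9 were each lost with some single libraries left out, 5 for Ndufa3 and 4 for Ndufa9, with adjusted p-values up to 0.094 and 0.0804 (both without knockout replicate 2).

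Ndufa10 (ENSMUSG00000026260, chromosome 1, 92439010 to 92473860, mm10), an accessory subunit of the membrane arm with a nucleoside kinase fold, was the 1 member that fell. It was at 62.5, 51.9, 82.4 and 69.2 CPM in the knockout and 125, 135, 102 and 159 CPM in the control libraries. Every knockout value was below every control value, and the log2 fold change of -0.97 ± 0.21 (adjusted p = 0.00589) stayed negative and called in all 16 alternatives, between -1.30 with a length trend removed and -0.57 with library totals only. Ndufa2, Ndufa4, Ndufa7, Ndufa11b and Ndufa12 were not called. Ndufa7 had one of the larger log2 fold changes, 2.94 ± 1.02 (adjusted p = 0.052), on 13 counts in the control libraries together. Ndufa11b, a relative of Ndufa11, came to a log2 fold change of 1.83 ± 0.68 (adjusted p = 0.068).

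Arm b holds accessory subunits of the membrane arm, and its rises were Ndufb3, Ndufb8, Ndufb9 and Ndufb11. Ndufb3 (ENSMUSG00000026032, chromosome 1, 58586384 to 58595964, mm10) was at 54.4, 59.3, 59.8 and 56.5 CPM in the knockout and 10.7, 3.19, 3.54 and 5.7 CPM in the control libraries. The knockout values lay within a narrow band and the control values well below it, and the log2 fold change of 3.32 ± 0.38 (adjusted p = 0.000177) was the largest of the tested members. Ndufb9 had 31.9, 28.3, 36.6 and 17.7 CPM in the knockout and 6.27, 3.83, 3.13 and 5.2 CPM in the control libraries. The gap between the groups was wide, with a log2 fold change of 2.64 ± 0.37 (adjusted p = 0.000527), and 13.4% of its stretches of 75 bases recur in Gm49356. Ndufb8 had 45.7, 59.5, 48.3 and 41.9 CPM in the knockout and 19.9, 10.5, 9.8 and 18.1 CPM in the control libraries, again without overlap (log2 fold change 1.75 ± 0.30, adjusted p = 0.00166). Ndufb11, an X-linked subunit, had 25.5, 27.7, 32.1 and 18 CPM in the knockout and 14.3, 9.9, 8.57 and 17.2 CPM in the control libraries. Its lowest knockout value barely exceeded its highest control value. The log2 fold change of 1.05 ± 0.33 (adjusted p = 0.034) lost its call with any of 5 single libraries left out, with adjusted p-values up to 0.0919 (without knockout replicate 3). Ndufb2, Ndufb5, Ndufb6 and Ndufb10 were not called, with log2 fold changes of -0.60, 0.12, 0.88 and 1.24. For Ndufb5, the sign was opposite with a length trend removed (-0.24). For Ndufb6, 27.8% of its stretches of 75 bases also occur in Smim27. In arm c, Ndufc2 (ENSMUSG00000030647, chromosome 7, 97400003 to 97407802, mm10), a membrane arm subunit, was at 37.5, 62.8, 62 and 48.6 CPM in the knockout and 8.8, 9.74, 7.58 and 11.2 CPM in the control libraries. The lowest knockout value was far above the highest control value, and of all members Ndufc2 had the smallest p, with a log2 fold change of 2.50 ± 0.27 (adjusted p = 0.000119).

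Of the assembly factors, Ndufaf7, a mitochondrial methyltransferase, and Ndufaf8, which stabilises Ndufaf5, rose. Ndufaf7 had 51.4, 39.3, 50.4 and 31.9 CPM in the knockout and 22.3, 16.4, 17.9 and 25.9 CPM in the control libraries, without overlap, and a log2 fold change of 1.07 ± 0.26 (adjusted p = 0.0116) that missed the threshold with a length trend removed (0.73, adjusted p = 0.0529). Ndufaf8 had 11.7, 15.7, 5.12 and 5.86 CPM in the knockout and 2.86, 1.44, 2.64 and 0.999 CPM in the control libraries. Knockout replicates 1 and 2 were higher than replicates 3 and 4, and the log2 fold change of 2.27 ± 0.58 (adjusted p = 0.0146) was not called without knockout replicate 2 (adjusted p = 0.0686). The abundant factors Ndufaf2 and Ndufaf4 were not called, except Ndufaf2 as higher with library totals only (adjusted p = 0.0407). Their groups overlapped, with log2 fold changes of 0.24 and -0.21, which took the opposite sign with a length trend removed (-0.17 for Ndufaf2) and with library totals only (0.20 for Ndufaf4).

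A pair of members have roles outside complex I. Ndufa4, now counted with cytochrome c oxidase, had 170.1, 210.3, 218 and 176 CPM in the knockout and 169.9, 67.2, 56.8 and 217 CPM in the control libraries. Control replicate 4 lay within the knockout range, replicate 1 just below it and replicates 2 and 3 far below it, and the log2 fold change of 0.60 ± 0.37 (adjusted p = 0.259) was not called, except with library totals only (adjusted p = 0.0397). Ndufab1, the mitochondrial acyl carrier protein, which also serves fatty acid synthesis, had 9.0, 9.27, 11 and 12.4 CPM in the knockout and 10.7, 8.78, 6.26 and 5.5 CPM in the control libraries, with overlap and a log2 fold change of 0.41 ± 0.38 (adjusted p = 0.46).

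The other 10 members were too scarce to test: Ndufa4l2, Ndufb4, Ndufb4c, Ndufb7, Ndufc1, Ndufs6b, Ndufaf1, Ndufaf3, Ndufaf5 and Ndufaf6. Ndufaf3, an assembly factor, was just below the filter, with 50, 32, 19 and 6 counts in the knockout and 9, 1, 1 and 0 in the control libraries. Ndufb7, another membrane arm subunit, had 41, 42, 6 and 9 counts in the knockout and 7, 1, 6 and 2 in the control libraries, and Ndufb4, also of that arm, had 12, 11, 17 and 8 counts in the knockout and 1, 1, 3 and 5 in the control libraries. In Ndufb4 the groups did not overlap and in Ndufaf3 and Ndufb7 they did. Ndufs6b, a relative of Ndufs6, had 11, 18, 9 and 10 counts in the knockout and 8, 9, 1 and 5 in the control libraries, with overlap. Ndufaf1 had 3 counts in 1 library and 0 in the other 7, where 0 counts allow up to 0.222 to 0.316 CPM by library total (3 counts, counting error only). Of Ndufa4l2, the control libraries held 0 counts and the knockout libraries 0, 6, 20 and 0.

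Summed over all 49 members, the level was 1123, 1408, 1370.1 and 1135 CPM in the knockout and 943, 609, 606 and 1056 CPM in the control libraries. All knockout sums were above all control sums, by 1.57 times on average, and control replicates 1 and 4 were higher than replicates 2 and 3. Of the 39 tested members, 14 had their highest control value in replicate 1 and 20 in replicate 4, and 19 had their highest knockout value in replicate 2 and 16 in replicate 3. The part of these libraries in the results was not tested. Most of the control sum came from Ndufa4, Ndufa10, Ndufaf2 and Ndufaf4. Without these 4, chosen after their levels were seen, the sums were 671, 820.0, 741 and 621 CPM in the knockout and 294, 185, 190.1 and 289 CPM in the control libraries, a ratio of means of 2.98. By arm, the mean sum was 5.58 times as high in the knockout for arm c, 3.08 for arm v, 3.01 for arm b, 2.69 for arm s, 1.42 for arm a and 1.04 for the assembly factors. After TMM adjustment the sums of the groups overlapped in arm a and in the assembly factors and in no other arm. These overlaps depend on scaling, as by library totals alone the groups were apart in those as well. As a share of all counts, the 49 members came to 0.129 to 0.165% in the knockout and 0.0564 to 0.0845% in the control libraries.

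**Figure D3:**
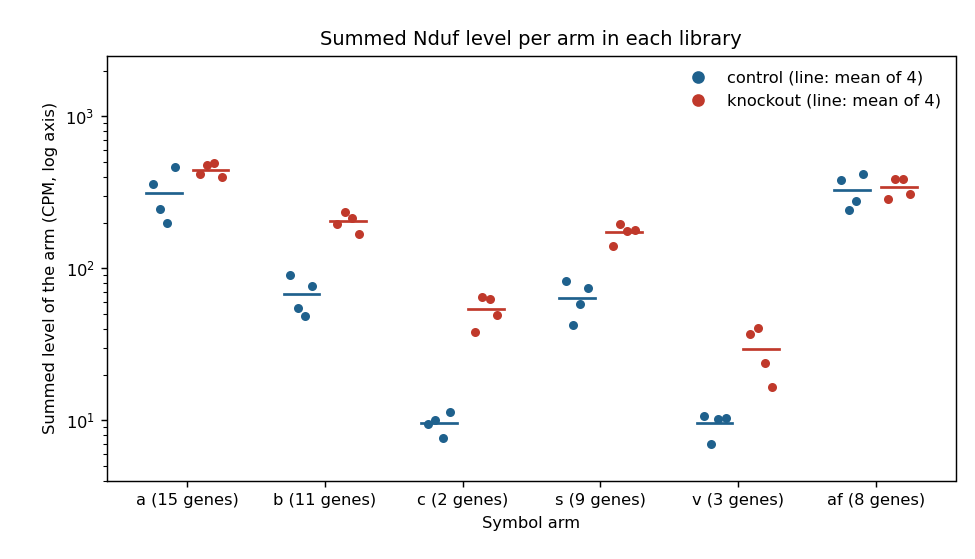
Summed level in CPM (log axis) of each symbol arm in each of 4 control (blue) and 4 knockout (red) libraries, with lines for group means. After TMM adjustment, as drawn, the groups are apart in arms b, c, s and v and overlap in arm a and in the assembly factors (af). By library totals alone they are apart in every arm.

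Levels per length (mean CPM per kilobase of exonic length) show how uneven the members are. In control oocytes Ndufa4 was highest at 259.9, followed by Ndufaf2 at 99.96, Ndufaf4 at 61 and Ndufa10 at 57.3. None of these 4 rose. For Ndufaf2, 63.2% of its stretches of 75 bases, over all GENCODE M21 transcripts, also occur in other genes such as B230220B15Rik. The part of this in its level was not tested. The core subunit Ndufv1 was near the bottom, at 0.74, and reached 5.83 in the knockout. In knockout oocytes Ndufa4 was again highest at 393, before Ndufaf2 at 118, Ndufa1 at 97.2, Ndufb3 at 75.4 and Ndufc2 at 69.9. Ndufa10 moved from rank 4 to rank 10 of 39, and Ndufb3 from rank 14 to rank 4. The order of neighbours was not tested.

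Nduf transcripts are short, and length went with the direction of change across the transcriptome. The tested members had a median exonic length of 1243 bases, beside 3580 for all tested genes. Among all tested genes, 17.2% of those under 1000 bases rose and 6.47% fell, while 6.92% of those of 6000 bases or more rose and 16.4% fell. The median log2 fold change was 0.28 for genes under 1000 bases and 0.35 from 1000 to under 2000 bases. The members of those lengths had medians of 1.83 (17 genes, 10 called higher) and 1.25 (10 genes, 4 called higher). After removal of a length trend in each library, 17 of the 19 rises were still called and the median of the members was 0.84, or 0.90 above that of all tested genes. With library totals only, all 19 were called along with 7 further members and the median was 1.64, but the median of all genes was then 0.49, so the members lay 1.15 above it (1.14 in the fit reported here).

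**Figure D4:**
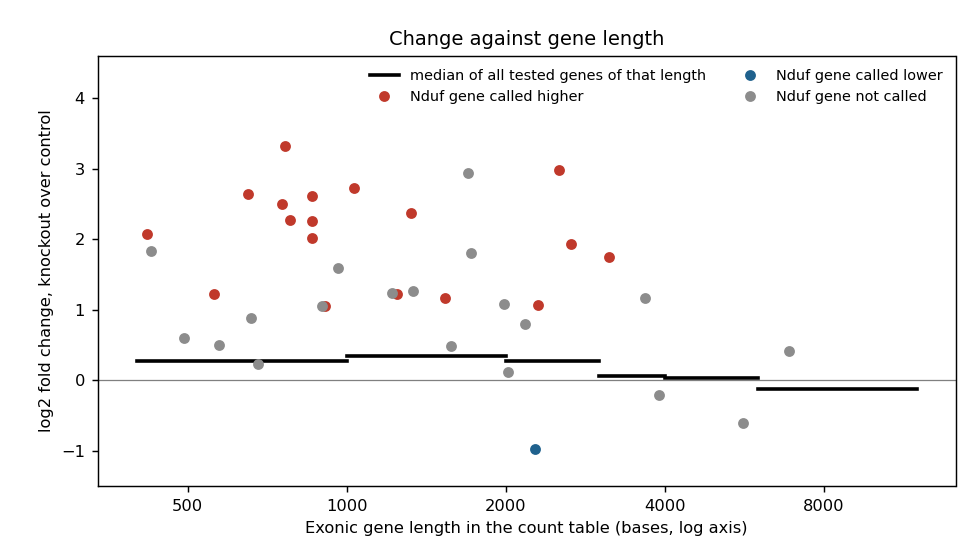
Log2 fold change of 38 of the 39 tested Nduf genes (points) against exonic length in bases (log axis). Black lines are medians of all tested genes in 6 length classes, the outer ones open-ended, and most members lie above the line of their class, at 1.83 in the median against 0.28 under 1000 bases.

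Other genes of complex I were taken from a list of 14 assembly factors and the 7 subunits encoded by mitochondrial DNA. Of these 21, 20 were in the table and 16 were tested, and 3 rose (background 13.6%) and 0 fell (background 12.2%), with 4 and 0 at an unadjusted p under 0.05 and 0 falls in DESeq2. The share that rose over both kinds together was near the background, and nothing is read from it about the list. Taken apart, 3 of 10 tested assembly factors rose, with a median log2 fold change of 1.26. Of 6 tested mitochondrially encoded subunits 0 rose, with a median of 0.08, and mt-Nd3 among them was scarce. The difference between the 2 kinds was not tested. The rises were assembly factors: Dmac1 rose from 10.5 ± 2.65 to 36.5 ± 9.92 CPM (SD, n = 4; log2 fold change 1.79 ± 0.31, adjusted p = 0.00194), Tmem126a from 0.403 ± 0.368 to 5.54 ± 2.62 CPM (log2 fold change 3.74 ± 0.88, adjusted p = 0.0095) and Tmem70 from 42.1 ± 7.38 to 69.5 ± 12.5 CPM (log2 fold change 0.73 ± 0.22, adjusted p = 0.0308). Tmem126a had 1, 1, 10 and 6 counts in the control libraries, all under the filter's level of 0.895 CPM by library total. It was therefore tested only because it was high in the knockout. The call of Tmem70 was lost in 5 of the 8 fits with 1 library left out, with adjusted p-values up to 0.088 (without knockout replicate 1). Acad9, Ecsit, Timmdc1, Nubpl, Tmem186, Dmac2 and Aifm1 were not called, with log2 fold changes from 0.37 for Nubpl to 2.19 for Timmdc1.

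Of the subunits encoded by mitochondrial DNA, mt-Nd1, mt-Nd2, mt-Nd3, mt-Nd4, mt-Nd5 and mt-Nd6 were tested and 0 were called in either direction. mt-Nd4, which belongs to the proton-pumping membrane arm, was at 3613, 4172, 3993 and 4443 CPM in the knockout and 4172, 3557, 2941 and 4964 CPM in the control libraries, and mt-Nd1, at the junction of the arms, was at 3164, 5055, 5073 and 5184 CPM in the knockout and 6485, 4216, 4042 and 5937 CPM in the control libraries. Both overlapped between groups. The 6 log2 fold changes ran from -0.18 ± 0.18 (adjusted p = 0.485) for mt-Nd2 to 0.25 ± 0.21 (adjusted p = 0.414) for mt-Nd6, and their signs depended on scaling, as those of mt-Nd1 and mt-Nd2 were positive with library totals only and the other 4 were negative with a length trend removed. With a length trend removed mt-Nd2 was called lower, and with library totals only mt-Nd4, mt-Nd5 and mt-Nd6 were called higher. The summed level of the 7 was 13311 to 17978 CPM in the knockout and 13432 to 20617 CPM in the control libraries, and the groups overlapped. To these sums mt-Nd4l added 0 and mt-Nd3 at most 1.71 CPM. The difference in change between nuclear and mitochondrial genes was not tested.

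The authors' deposited table of 2709 genes listed 19 Nduf genes, 18 of them higher in the knockout and Ndufa10 lower. In the authors' deposited table the largest shrunken log2 fold change of a member was 3.10 for Ndufb3 (authors' adjusted p = 4.43e-17), and Ndufa10 had -0.99. The member listed there and not called in the fit reported here was Ndufv2. Ndufaf7 and Ndufaf8, the assembly factors called higher here, are not listed in the authors' deposited table, in which no adjusted p exceeds 0.00999608.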

How the data were processed

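The members, gene lists, arms and alternatives were chosen with earlier results of these data known, so no pattern here is independent of them. Per the labels, single-oocyte RNA went through a SMARTer Ultra Low kit, whose poly(A) priming records neither strand nor molecules, and was read as single reads of 75 bases. Tools named in the submitters' processing notes are GSNAP, featureCounts 1.4.4 and DESeq2 1.3.79, with build mm10. Per the file headers, the deposited counts per gene came from featureCounts on Ensembl release 69, with a mapping quality of at least 1, no strand option and no option for multiply mapped reads, so reads of copies and overlapping genes are lost or split. A second deposited table, of the authors' own comparison, gives log2 fold changes with and without shrinkage. In it the authors deposited their SE (entered here as a score), raw and adjusted p-values, mean normalized signal and RPKM values. Fold changes and adjusted p-values alone are quoted from it.

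All 8 count columns held whole numbers of 0 or more, and 0 columns were left out. Of the identifiers, 35459 had a symbol, 10 of them from the deposited comparison and the rest from a gene name table. edgeR 4.0.16 in R 4.3.3 was used (TMM scaling, the filterByExpr filter, genotype as sole term, quasi-likelihood test, Benjamini-Hochberg adjustment over 11066 genes, threshold 0.05). The fit was tested on simulated counts. The SE is the log2 fold change divided by the square root of F. Within groups every pair of libraries differed by far more than sampling noise (chi-square per degree of freedom from 32.4), so each counted once. Totals of 9488899 to 13519404 counts make 3 counts equal to 0.222 to 0.316 CPM.

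Values per library are given for Setd1b, core subunits, up to 4 called members per arm by smallest p, members called lower, Ndufab1, Ndufa4 and members just below the filter. Alternatives were median-of-ratios factors, library totals only, a length trend removed (loess, span 0.5), no abundance filter, a floor of 10 CPM in 4 libraries, DESeq2 1.42.0, a replicate block, an adjusted p of 0.01, and each library left out. 1 item under this rule is not reported here, though it is in the counts, medians and sums. Python 3.11.15 did the rest. Exons come from GENCODE M21.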

Additional observations from a re-analysis of the deposited data

Results flagged for a closer look

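In groups of 4 libraries, a single library stood far from the other 3 in 4 of 112 group values checked, and chance alone marks about 1 in 20. Ndufa11 was at 19.3 CPM in control replicate 4, against 5.72 to 6.01 CPM in the other controls, and its relative Ndufa11b at 1.8 CPM in the same library, against 0.718 to 0.88 CPM. The 2 genes share 5 stretches of 75 bases. Ndufs7 was at 8.59 CPM in knockout replicate 2, against 1.89 to 2.98 CPM in the other knockouts. The mitochondrial gene mt-Nd1 was at 3164 CPM in knockout replicate 1, against 5055 to 5184 CPM in the other knockouts.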

How the results depend on the processing

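Of the 19 members called higher, 15 remained called with each library left out in turn and 10 in all 16 alternatives, and Ndufa10 remained called lower in all of them. Among 853 recomputed values of 55 genes, 780 kept direction and call, 36 lost the call, 21 gained it and 16 changed sign, and the causes were not tested. With at least 10 CPM in 4 libraries, only 20 members were tested and 13 of them rose. In arm a 4 of 6 tested rose, and of the assembly factors 1 of 3. In arm v 0 were tested, and Setd1b had no value. At an adjusted p of 0.01, 5 of arm a and 0 assembly factors rose, among all genes 747 rose and 644 fell, and Setd1b (-1.44) was not called. With library totals only, 2 of arm v and 8 other complex I genes rose, 2377 of all genes rose and 510 fell, the members' median was 1.64, and Setd1b came to -1.04 (adjusted p = 0.0887). DESeq2 called 2 of arm v. With a length trend removed, 1 assembly factor rose, mt-Nd2 was called lower (1 other complex I gene) and the members' median was 0.84. Without a filter it was 1.65.

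With single libraries left out, arm a had 6 to 9 rises, arm b 3 to 4 and arm s 3 to 4. Arm v had 1 to 2 (2 without control replicate 4) and assembly factors 1 to 3. All genes had 837 to 1244 falls (837 without knockout replicate 2). The median ran from 1.22 to 1.65 (without control replicate 4) and Setd1b from -1.57 to -1.33. Signs changed in members that were not called: Ndufa2 ran from -0.15 (without knockout replicate 2) to 1.16, Ndufb5 from -0.13 (likewise, and negative without control replicate 4) to 0.34, mt-Nd3 from -0.036 (without knockout replicate 3) to 0.29, mt-Nd4 from -0.066 to 0.18 and mt-Nd5 from -0.0061 to 0.24 (both lowest without control replicate 3). With a length trend removed Ndufaf2 was -0.17, Ndufb5 -0.24, mt-Nd3 -0.35, mt-Nd4 -0.33, mt-Nd5 -0.24 and mt-Nd6 -0.16, and with library totals only Ndufaf4 was 0.20, mt-Nd1 0.24 and mt-Nd2 0.23.

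Replicate numbers are shared between the groups, but same-numbered libraries did not deviate together (correlations of -0.064, -0.021, -0.117 and -0.060), so the numbers were not taken as pairs. With a replicate block 16 members rose and 1 fell, 861 of all genes fell, and Setd1b was -1.46 (adjusted p = 0.07). Members with few counts, such as Ndufa7 with 13 in the control libraries, have wide errors.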
